A study of Mus musculus with 25 samples.

Results

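Islet capillaries were followed here through 10 genes: 9 that are read mainly in vascular endothelial cells (Pecam1, Cdh5, Kdr, Flt1, Tek, Tie1, Plvap, Esam and Egfl7) and Vegfa, the growth factor through which islet endocrine cells keep those capillaries. They were picked by gene symbol, and all 10 were found in each of the 4 tables, which hold 12822 to 17549 genes. In db_REG3B libraries 8 of the 9 endothelial genes fell relative to db_GFP libraries, by 0.54 to 1.24 on a log2 scale, while Vegfa rose by 0.54; Tek, the other one, was under 1 FPKM there and is described apart. In KO_PBS libraries Vegfa fell together with its receptors Kdr and Flt1, and the other 7 endothelial genes rose, fell or did not pass depending on how libraries were scaled. In BcBKO libraries on a high-fat diet the 9 endothelial genes had higher mean values than in flox/flox libraries, but none passed the test.

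The values are FPKM (fragments per kilobase of transcript, relative to library size) of messenger RNA, sequenced in paired ends, from whole mouse islets in 19 libraries. BcBKO, HFD and flox/flox, HFD (2 libraries each) come from mice fed a high-fat diet for 3 months. BcBKO stands for an ablation in beta cells with Pdx1-cre, in a series on the chromatin remodelling subunit BAF60C, and the labels do not say whether flox/flox mice carry Pdx1-cre. The Pdx1 promoter is also active in the embryonic pancreas, so this driver is not restricted to adult beta cells. KO_REG3B-Fc, KO_PBS and CTR_PBS have 2 libraries each, with the secreted lectin REG3B as an Fc form or saline named in the label. The gene lost in KO, the background that CTR and KO share and the way REG3B-Fc was given are not in the labels. db_REG3B and db_GFP have 2 libraries each, and neither db nor the route of delivery is spelled out. WT has 5 libraries with no treatment named. Strain, sex and age are not in the labels, and the chow-fed libraries were not analysed here. Each library pools islets of at least 3 mice, and no label says whether libraries of a group were isolated separately, so p-values measure only the spread between these libraries. Values after ± are SDs.

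Endothelial cells line the dense, fenestrated capillaries that run through each islet. Beta cells secrete VEGF-A, which binds KDR and FLT1 on those capillaries, and loss of islet VEGF-A in mice is known to thin the network and its fenestrae. Angiopoietins act on the same vessels through TIE2, the product of Tek, with TIE1 as its partner.

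Whole islets mix many cell types, and the mix differed between libraries. Insulin transcripts took 27.0 to 67.8% of summed FPKM, so islet identity was plain in every library. Digestive enzyme genes of acinar cells took 17.5 and 17.7% in KO_REG3B-Fc and 41.5 and 42.6% in KO_PBS libraries, against 20.4 and 20.2% in CTR_PBS libraries. They took 7.34 to 55.0% in WT, 2.91 to 10.6% on HFD and at most 0.161% in db libraries. Since FPKM are shares of a library, a large acinar share lowers all other values. Changes are therefore given after median scaling, in which each library is divided by its median ratio to the geometric mean library of its table, and for the 10 genes the result on the deposited scale is given wherever the call or direction differs. In bulk RNA, fewer cells of a type and less RNA per cell cannot be told apart. The tables were normalised separately, so levels are compared within a table. The number of reads behind these values is unknown. A change was called at an adjusted p under 0.05 in limma, on log2(FPKM + 1), which understates the change of low genes.

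The ligand and its receptors lie apart in the genome (GRCm38.p6). Vegfa (Entrez 22339) spans chromosome 17, 46016993 to 46032377. Kdr (Entrez 16542), which encodes VEGFR2, the main signalling receptor, spans chromosome 5, 75932827 to 75979072. Flt1 (Entrez 14254), which encodes VEGFR1, a tight binder of VEGF-A with weak kinase activity, spans chromosome 5, 147561604 to 147726438. Tek (Entrez 21687, chromosome 4, 94739086 to 94874976) encodes TIE2, and Tie1 (Entrez 21846, chromosome 4, 118471191 to 118489849) its orphan relative. Among the junction proteins, Pecam1 (Entrez 18613, chromosome 11, 106654213 to 106715281) encodes CD31, Cdh5 (Entrez 12562, chromosome 8, 104101613 to 104144504) VE-cadherin, and Esam (Entrez 69524, chromosome 9, 37528089 to 37538319) an adhesion molecule that platelets also carry. Plvap (Entrez 84094, chromosome 8, 71497753 to 71511806) forms the diaphragms of fenestrae. Egfl7 (Entrez 353156, chromosome 2, 26581083 to 26592682) encodes a secreted factor of the vessel matrix. All are protein coding.

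The 250 bases before the start are shown for Vegfa, Kdr and Flt1, which moved together in the PBS table, and for Tek, which did not move with them. The sequences are from RefSeq, GRCm38.p6, and 6 of the 10 genes had an entry; Vegfa had 2 starts, of which the one at the upstream end of the gene is shown. Of the windows shown, only that of Vegfa lies outside the gene span given above. The windows of Kdr and Flt1 lie inside their spans, and that of Tek overlaps the start of its span. All sequences are written 5′ to 3′ on the strand of the gene. Capitals mark matches on either strand to AGGAAG or CGGAAG (the core bound by ETS factors, which are known from endothelial promoters), ACGTG or GCGTG (the core of hypoxia response elements), GGGCGG (the GC box) and TATAAA. The ACGTG core can match both strands at the palindrome CACGTG.
Vegfa, chr17:46032378-46032627, minus strand: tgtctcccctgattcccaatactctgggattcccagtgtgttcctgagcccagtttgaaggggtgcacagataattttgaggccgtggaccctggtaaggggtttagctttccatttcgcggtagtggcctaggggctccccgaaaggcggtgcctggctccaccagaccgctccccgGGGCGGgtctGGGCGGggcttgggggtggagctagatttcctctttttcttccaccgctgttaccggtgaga
Kdr, chr5:75978456-75978705, minus strand: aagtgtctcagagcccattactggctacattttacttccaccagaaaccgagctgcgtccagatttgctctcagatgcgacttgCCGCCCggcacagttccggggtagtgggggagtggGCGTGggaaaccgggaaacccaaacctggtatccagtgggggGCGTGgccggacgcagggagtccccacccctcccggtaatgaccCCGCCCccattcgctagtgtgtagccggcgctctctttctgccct
Flt1, chr5:147726012-147726261, minus strand: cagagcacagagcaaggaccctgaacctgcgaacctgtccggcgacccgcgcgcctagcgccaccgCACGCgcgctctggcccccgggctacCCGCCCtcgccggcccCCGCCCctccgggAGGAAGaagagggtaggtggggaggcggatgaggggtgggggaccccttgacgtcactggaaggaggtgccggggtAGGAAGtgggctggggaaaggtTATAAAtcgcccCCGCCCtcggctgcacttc
Tek, chr4:94739039-94739288, plus strand: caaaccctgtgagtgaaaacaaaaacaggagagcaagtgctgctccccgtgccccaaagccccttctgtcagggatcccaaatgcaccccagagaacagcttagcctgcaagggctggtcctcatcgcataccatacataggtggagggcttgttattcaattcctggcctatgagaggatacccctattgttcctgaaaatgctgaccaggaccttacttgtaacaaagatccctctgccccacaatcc

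Vegfa showed 2 GC boxes and no other match in this window, while the window of its other start, chr17:46025164-46025413, held 2 hypoxia response cores and 1 GC box. Kdr showed 2 GC boxes and 2 hypoxia response cores. Flt1 showed 3 GC boxes, 2 ETS cores, 1 hypoxia response core and 1 TATA box. Tek showed none of the motifs. Tie1 and Egfl7, which did not move with Vegfa, Kdr and Flt1 after scaling either, had entries that are not shown. Tie1 held 2 ETS cores. The 3 starts of Egfl7 held 3, 1 and 0 ETS cores and 0, 0 and 4 GC boxes, so the GC box was not limited to genes that moved together. Over 32851 promoter windows of the same length, 39.2% held an ETS core, 38.6% a hypoxia response core, 32.7% a GC box and 12.4% a TATA box. These matches are letters in a window, and nothing was measured on binding.

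In WT islets Vegfa and Plvap were the highest of the 10 genes, and Tek the lowest. Vegfa measured 55.2, 39.6, 38.8, 91.3 and 100.2 FPKM in the 5 libraries (65.0 ± 29 FPKM, n = 5). Plvap measured 70.0, 46.7, 45.2, 42.7 and 72.2 FPKM (55.3 ± 14.4 FPKM, n = 5), and its range overlapped that of Vegfa. Below a gap, in which no library of Plvap overlapped any of Pecam1, came Pecam1 (13.1 ± 2.78 FPKM), Kdr (10.6 ± 3.19 FPKM), Egfl7 (9.32 ± 2.41 FPKM), Esam (9.29 ± 1.59 FPKM) and Flt1 (7.93 ± 2.57 FPKM). Tie1 (5.50 ± 1.61 FPKM) and Cdh5 (4.72 ± 1.28 FPKM) followed, and each of these neighbours overlapped in range with the next. Tek, at 2.07 ± 0.686 FPKM, lay below the range of Cdh5. FPKM is per length, so this order compares genes.

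In deposited FPKM, Vegfa and the endothelial genes were both low in WT libraries 2 and 3. Both were high in library 5, and they parted in library 4. The 9 endothelial genes summed to 150.6, 98.7, 94.8, 98.3 and 146.8 FPKM (118 ± 28.3 FPKM, n = 5). In these deposited values library 4 had the second highest Vegfa and the lowest Plvap, Flt1, Tie1 and Egfl7 of the 5. Its Pecam1, Kdr, Tek and Esam were above those of libraries 2 and 3, and its Cdh5 lay between theirs. After median scaling all 9 endothelial genes were lowest in library 4. Scaled Pecam1 was 11.28 there, against 13.27 and 12.17 in libraries 2 and 3, and scaled Kdr was 7.371, against 9.646 and 9.855. The balance of ligand to vessel genes was taken within each library as log2 FPKM of Vegfa minus the mean log2 FPKM of the 9 endothelial genes, a ratio that no scaling of a library changes. It was 2.31, 2.45, 2.50, 3.66 and 3.23 in the 5 WT libraries. The acinar share of the same libraries was 40.1, 52.6, 55.0, 7.34 and 33.7%, so the 2 libraries with the highest balance had the lowest acinar shares. The part of acinar RNA in the balance was not tested.

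**Figure D1:**
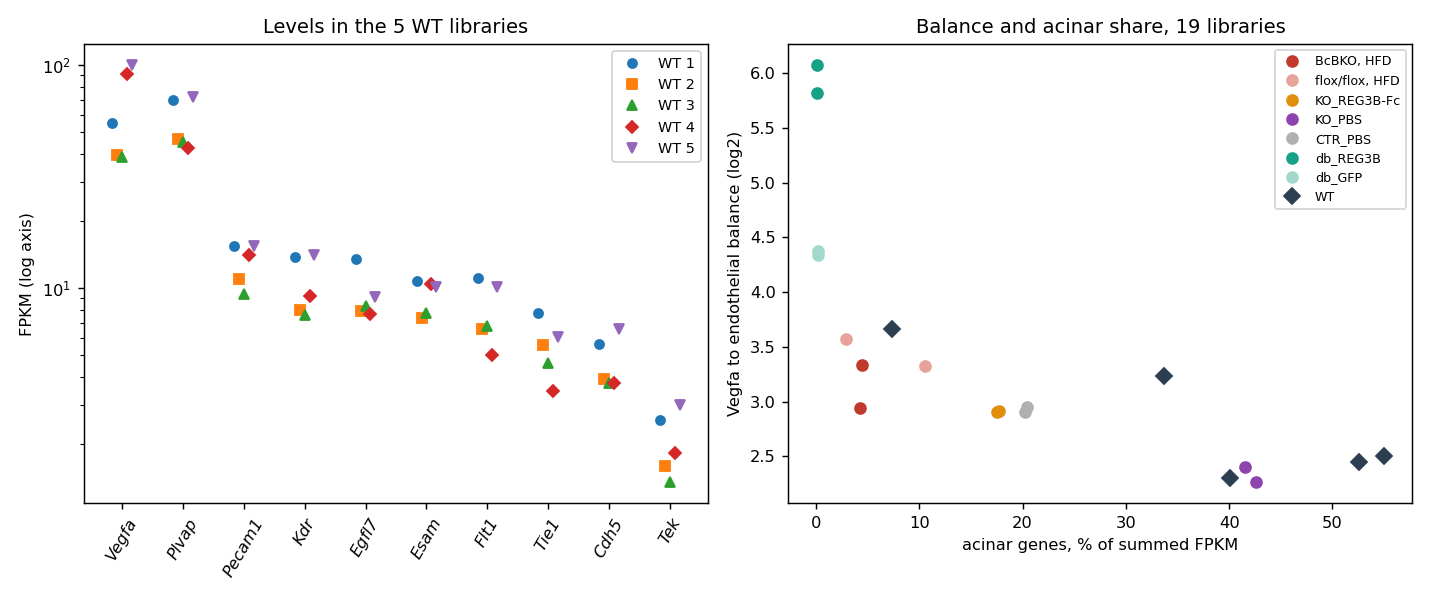
Left, FPKM on a log axis of the 10 genes in the 5 WT libraries, in order of their mean; each symbol is 1 library. Right, the Vegfa to endothelial balance (log2) against the share of acinar genes in summed FPKM (%) in all 19 libraries; WT libraries run from 2.31 to 3.66, and the 2 db_REG3B libraries stand highest at 6.08 and 5.82.

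The first comparison asked what the BcBKO ablation changes in islets on HFD. None of the 10 genes passed, although all 9 endothelial genes had the higher mean in BcBKO libraries. Kdr measured 22.6 and 23.6 FPKM in BcBKO libraries, against 17.8 and 17.4 FPKM in flox/flox libraries. Flt1 measured 21.5 and 19.5 FPKM in BcBKO libraries, against 15.9 and 14.7 FPKM in flox/flox libraries. Cdh5 had 10.9 and 12.6 FPKM in BcBKO libraries and 7.92 and 8.51 FPKM in flox/flox libraries. For these 3 genes every BcBKO library was above every flox/flox library. The changes were 0.29 ± 0.107 (SE) for Kdr, 0.32 ± 0.109 for Flt1 and 0.39 ± 0.135 for Cdh5 on the log2 scale, each with adjusted p = 1.

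The other 6 endothelial genes were higher by a mean of 0.14 (Esam) to 0.36 (Egfl7) on the log2 scale, all with adjusted p = 1. Single libraries moved these values: without the first or the second BcBKO library Pecam1 was 0.588 or 0.0485, Tek 0.43 or 0.136, Egfl7 0.512 or 0.203, Tie1 0.399 or 0.14, Plvap 0.377 or 0.164 and Esam 0.0631 or 0.216. Without the second flox/flox library Plvap was 0.169. Plvap measured 123 and 139 FPKM in BcBKO libraries, against 112 and 92.7 FPKM in flox/flox libraries. Pecam1 had the widest spread, 19.4 and 28.1 FPKM in BcBKO libraries against 16.9 and 18.2 FPKM in flox/flox libraries. After scaling, the groups of 8 of the 9 genes did not overlap, the exception being Pecam1. Of all 11560 genes tested, 14.1% had both BcBKO libraries above both flox/flox libraries. The median change of the 9 genes was 0.29, against 0.00 for all genes. Only 1 gene of the table was called higher (0.00865%) and 0 were called lower (0%) in limma, with 299 genes at an unadjusted p under 0.05. In the authors' deposited table the 9 genes had log2 fold changes of 0.15 to 0.43, also with adjusted p = 1.

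Vegfa itself differed less between these groups than between libraries of 1 group. It measured 185 and 159 FPKM in BcBKO libraries, against 180.4 and 144 FPKM in flox/flox libraries, a log2 change of 0.00 ± 0.153 (SE, adjusted p = 1). Its sign turned when a library was left out, between -0.12 and 0.13. The balance of Vegfa to the endothelial genes was 3.14 ± 0.277 in BcBKO and 3.45 ± 0.172 in flox/flox libraries (n = 2 each), a difference of -0.31, and 1 BcBKO library (3.33) lay at the level of a flox/flox library (3.33). The acinar share was 4.42 and 4.30% in BcBKO libraries, against 2.91 and 10.6% in flox/flox libraries.

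Neighbouring lists of genes were not called in this comparison either. None of 11 tested genes of the VEGF and angiopoietin pathways passed, and Pgf, the gene of placental growth factor, had 23.1 and 17.8 FPKM in BcBKO against 15.3 and 11.8 FPKM in flox/flox libraries (log2 change 0.48, adjusted p = 1). None of 34 other endothelial genes passed (median 0.22), and Eng, the TGF-beta co-receptor endoglin, had 38.6 and 40.2 FPKM in BcBKO against 30.7 and 25.2 FPKM in flox/flox libraries (0.40, adjusted p = 1). None of 10 mural cell genes (median 0.27) and 11 basement membrane genes (median 0.21) passed. Mural cells wrap the capillaries, and the vascular basement membrane lies between them and the endothelium.

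**Figure D2:**
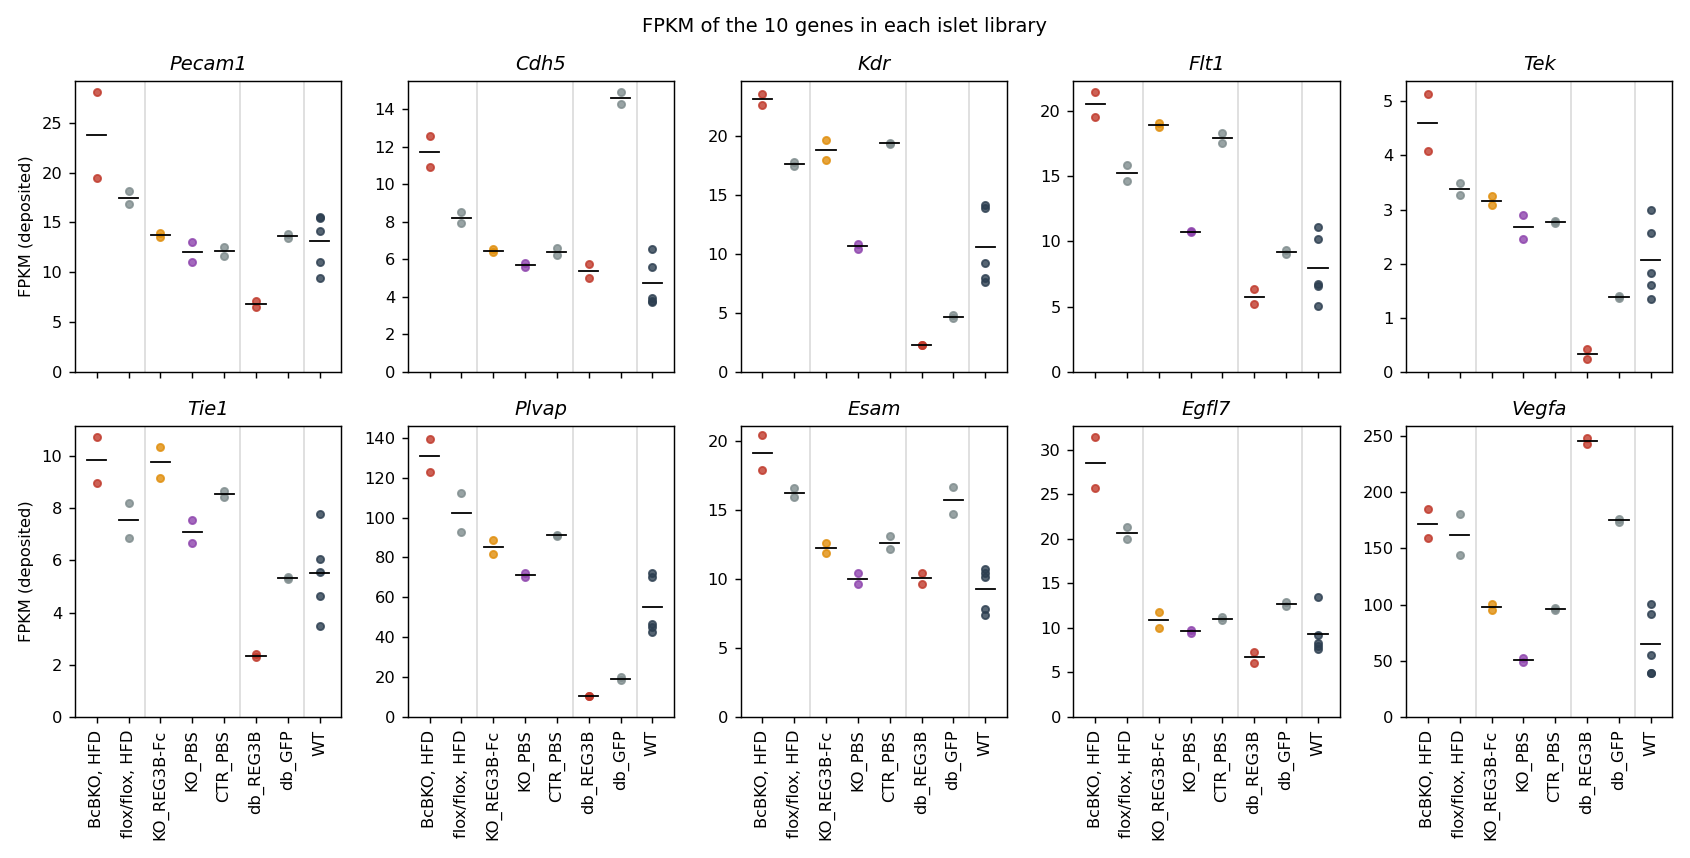
Deposited FPKM of each gene (1 panel a gene, linear axis from 0) in every library; dots are libraries, bars are group means, and grey lines part the 4 tables, which were normalised separately. Vegfa stands at 52.5 and 48.5 in KO_PBS and at 248 and 243 in db_REG3B, where Tek is at 0.23 and 0.43.

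The second comparison set KO_PBS against CTR_PBS, that is, the knockout against its control without REG3B. Vegfa, Kdr and Flt1 fell. Vegfa measured 52.5 and 48.5 FPKM in KO_PBS libraries, against 96.6 and 95.5 FPKM in CTR_PBS libraries. Kdr measured 10.8 and 10.4 FPKM in KO_PBS libraries, against 19.3 and 19.4 FPKM in CTR_PBS libraries. Flt1 measured 10.8 and 10.7 FPKM in KO_PBS libraries, against 18.3 and 17.6 FPKM in CTR_PBS libraries. For all 3 genes both KO_PBS libraries lay far below both CTR_PBS libraries, and replicates were close. After median scaling the log2 changes were -0.39 ± 0.0408 (SE, adjusted p = 0.000112) for Vegfa, -0.31 ± 0.0467 (adjusted p = 0.000894) for Kdr and -0.19 ± 0.0416 (adjusted p = 0.00625) for Flt1. On the deposited scale they were larger, at -0.92, -0.81 and -0.69. On the equal sum described next they were -0.55, -0.46 and -0.34. Flt1 lost its call when the first CTR_PBS library was left out (-0.175, adjusted p = 0.0525).

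The direction of the other 7 endothelial genes depended on the scale. Pecam1 measured 13.1 and 11.0 FPKM in KO_PBS libraries, against 11.6 and 12.6 FPKM in CTR_PBS libraries, and the groups overlapped. Cdh5 measured 5.80 and 5.57 FPKM in KO_PBS libraries, against 6.22 and 6.58 FPKM in CTR_PBS libraries. Plvap measured 70.3 and 72.2 FPKM in KO_PBS libraries, against 91.2 and 90.9 FPKM in CTR_PBS libraries. These deposited values are level for Pecam1 and lower in KO_PBS for Cdh5 and Plvap. After median scaling all 7 rose, by 0.49 (Pecam1), 0.36 (Tek), 0.32 (Cdh5), 0.30 (Egfl7), 0.24 (Tie1), 0.19 (Esam) and 0.18 (Plvap), with adjusted p between 0.000831 and 0.0361. On the deposited scale Cdh5, Tie1, Plvap, Esam and Egfl7 fell instead, by 0.15, 0.24, 0.35, 0.30 and 0.18, and Pecam1 (-0.01, adjusted p = 0.912) and Tek (-0.04, adjusted p = 0.597) did not pass. Scaled to an equal sum of all genes other than acinar, REG and insulin genes, Pecam1 (0.34), Tek (0.24) and Cdh5 (0.18) rose, while Tie1 (0.10, adjusted p = 0.289), Plvap (0.02, adjusted p = 0.681), Esam (0.04, adjusted p = 0.58) and Egfl7 (0.16, adjusted p = 0.0848) did not pass. After median scaling, leaving out the first CTR_PBS library also ended the calls of Tie1, Plvap, Esam and Egfl7 (adjusted p = 0.0565 to 0.224), leaving out the second KO_PBS library those of Tie1 and Esam (0.149 and 0.178), and leaving out the second CTR_PBS library that of Tie1 (0.0728). Tie1 and Esam also missed the threshold with no filter on low values (0.0666 and 0.0685), and Esam with only the 4 libraries compared (0.0503).

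The median gene of all 11789 was 0.44 lower in KO_PBS on the deposited log2 scale. After median scaling 2943 genes were called higher (25%) and 2308 lower (19.6%), against 1021 higher (8.66%) and 9603 lower (81.5%) on the deposited scale and 1899 higher and 5120 lower on the equal sum. Among the 10 genes 7 were called higher and 3 lower after scaling, against 0 and 8 on the deposited scale. In the authors' deposited table the signs were those found after median scaling, with Vegfa at -0.45, Kdr at -0.38, Flt1 at -0.23 and Pecam1 at 0.48, and Tie1 (adjusted p = 0.095), Esam (0.405) and Egfl7 (0.189) did not pass there.

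**Figure D3:**
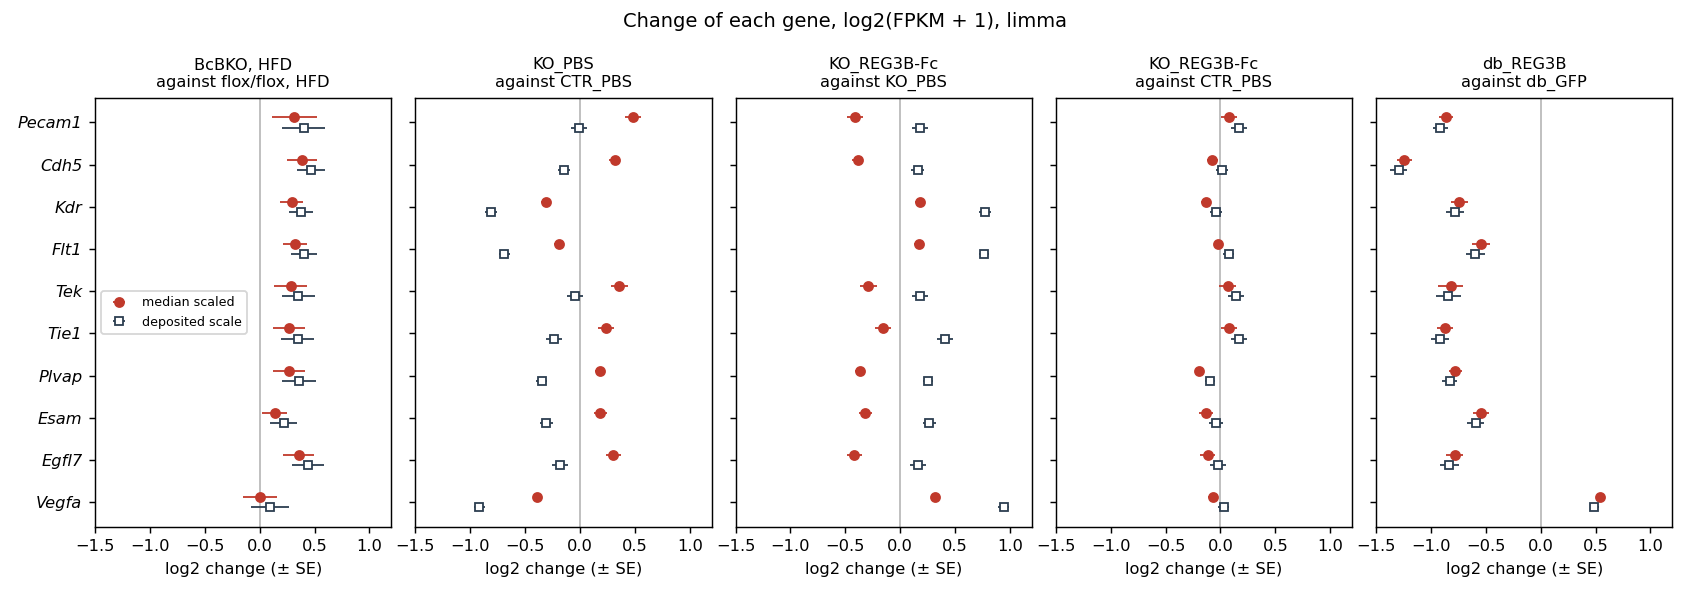
Log2 change (x axis, with SE as bars) of the 10 genes in the 5 comparisons; filled circles are after median scaling and open squares on the deposited scale. In the KO_PBS panel Vegfa (-0.39 and -0.92), Kdr and Flt1 lie left of 0 on both scales. In the db_REG3B panel the 8 endothelial genes other than Tek lie left of 0 and Vegfa right of it on both. Tek, under 1 FPKM in db_REG3B, is drawn but not counted there.

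Ratios within a library do not depend on the scale. The balance of Vegfa to the 9 endothelial genes was 2.33 ± 0.1 in KO_PBS and 2.93 ± 0.0368 in CTR_PBS libraries (n = 2 each), a difference of -0.60 that makes Vegfa 0.662 times as high relative to the endothelial genes. The acinar shares of these libraries are given above, and their part in the balance was not tested. Kdr and Flt1 were also lower relative to other endothelial genes. The ratio of Kdr to Pecam1 was 0.83 and 0.943 in KO_PBS libraries, against 1.66 and 1.54 in CTR_PBS libraries. The ratio of Flt1 to Cdh5 was 1.86 and 1.92 in KO_PBS libraries, against 2.95 and 2.67 in CTR_PBS libraries. The mean log2 FPKM of Kdr and Flt1 minus that of the other 7 endothelial genes, a measure chosen after these values were seen, was 0.12 ± 0.0581 in KO_PBS and 0.72 ± 0.0552 in CTR_PBS libraries. In the WT libraries, of another table normalised separately, it ran from -0.11 to 0.22, and groups of different tables are not ranked by it.

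Among the wider VEGF and angiopoietin genes, 10 of 17 listed were tested, and 3 rose and 2 fell after scaling, shares near the 25% and 19.6% of all genes. Vegfb, a ligand of FLT1, fell, with 11.4 and 12.4 FPKM in KO_PBS against 21.4 and 23.1 FPKM in CTR_PBS libraries (-0.35, adjusted p = 0.00284), as did Flt4, the receptor of VEGF-C (-0.22, adjusted p = 0.0192). Pgf (0.31, adjusted p = 0.00208), Nrp2 (0.29, adjusted p = 0.00893) and Ptprb, the endothelial phosphatase VE-PTP (0.17, adjusted p = 0.0353), rose after scaling. On the deposited scale 0 of the 10 rose and 9 fell, beside 8.66% higher and 81.5% lower among all genes. The neuropilin gene Nrp1, a co-receptor of KDR, had 9.38 and 8.46 FPKM in KO_PBS against 14.0 and 13.9 FPKM in CTR_PBS libraries (-0.10, adjusted p = 0.159, and -0.59, adjusted p = 9.89e-06, on the deposited scale).

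Of 31 other endothelial genes tested, 15 rose and 2 fell after scaling, and 5 rose and 17 fell on the deposited scale. Over all genes 25% were called higher and 19.6% lower after scaling, and 8.66% and 81.5% on the deposited scale. Without Vwf, which was under 1 FPKM in CTR_PBS libraries, 14 of 30 rose and 2 fell. The 2 that fell after scaling were Esm1 and Dll4, and Dll4 is named after its value was seen. Esm1, a secreted proteoglycan of sprouting tip cells, measured 19.5 and 20.0 FPKM in KO_PBS libraries, against 44.4 and 43.6 FPKM in CTR_PBS libraries (-0.61 ± 0.0468 SE, adjusted p = 1.83e-05). Dll4, the Notch ligand of tip cells, measured 2.98 and 3.19 FPKM in KO_PBS libraries, against 6.05 and 6.09 FPKM in CTR_PBS libraries (-0.37, adjusted p = 0.00126). Both genes are known to be induced by VEGF-A, and the part of Vegfa in their changes here was not tested. In the other direction were Gimap6, with 7.61 and 7.64 FPKM in KO_PBS against 5.70 and 6.19 FPKM in CTR_PBS libraries (0.79, adjusted p = 1.47e-05), and the sphingosine phosphate receptor gene S1pr1 (0.82, adjusted p = 6.08e-05). Both rose on the deposited scale too, and lymphocytes also express both. Vwf, of larger vessels and platelets, also rose (1.24, adjusted p = 2.43e-06), at 1.71 and 1.70 FPKM against 0.39 and 0.43 FPKM in CTR_PBS libraries.

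Several other cell types moved in the same comparison. All 41 tested acinar genes rose (median 1.46), as did 6 of 6 stellate (median 1.83) and 7 of 7 macrophage genes (median 0.90; 6 on the deposited scale), and 10 of 12 beta cell genes fell (median -0.43). Of 3 lymphatic genes of at least 1 FPKM in both groups all fell, namely Prox1 (-0.40, adjusted p = 0.000378), which endocrine cells may also express, Lyve1 (-0.39, adjusted p = 0.000932) and Flt4. Ccl21a, of the same list but under 1 FPKM in CTR_PBS libraries, rose (2.81, adjusted p = 2.33e-06). It rose on the deposited scale too (2.43, adjusted p = 8.2e-07). The summed FPKM of the B and T cell list was 53.5 to 54.0 in KO_PBS libraries, against 3.39 to 3.40 in CTR_PBS libraries, where the B cell gene Ms4a1 was listed at 0. The macrophage list summed to 151 to 158 FPKM in KO_PBS and 65.3 to 67.1 FPKM in CTR_PBS libraries. The mural list summed to 62.7 to 63.1 deposited FPKM in KO_PBS and 65.0 to 66.7 deposited FPKM in CTR_PBS libraries, but its direction depended on the scale. Of 9 mural genes of at least 1 FPKM in both groups, 5 rose and 0 fell after scaling (median 0.245). Of all 11 mural genes tested, 5 rose and 2 fell after scaling, and 4 rose and 5 fell on the deposited scale. The shares of all genes called higher and lower were 25% and 19.6% after scaling. On the deposited scale they were 8.66% and 81.5%. Leukocytes also carry CD31, so Pecam1 can be read outside endothelium. The part of these cells in the changes of the 9 endothelial genes was not tested.

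The third comparison set KO_REG3B-Fc against KO_PBS, asking what REG3B-Fc changes in the knockout; it shares the KO_PBS libraries with the previous one, so opposite signs in these comparisons are not independent. Vegfa, Kdr and Flt1 rose. Vegfa measured 100.6 and 95.5 FPKM in KO_REG3B-Fc libraries, against the 52.5 and 48.5 FPKM of KO_PBS libraries (0.32 ± 0.0408 SE, adjusted p = 0.000377). Kdr measured 19.7 and 18.0 FPKM in KO_REG3B-Fc and 10.8 and 10.4 FPKM in KO_PBS libraries (0.18 ± 0.0467, adjusted p = 0.0148). Flt1 measured 19.1 and 18.8 FPKM in KO_REG3B-Fc and 10.8 and 10.7 FPKM in KO_PBS libraries (0.17 ± 0.0416, adjusted p = 0.0107). On the deposited scale the changes were 0.94, 0.77 and 0.76. On the equal sum they were 0.44, 0.29 and 0.28. Without the first KO_REG3B-Fc or the second KO_PBS library Kdr missed the threshold (adjusted p = 0.0964 and 0.0553), and without the second KO_REG3B-Fc library Flt1 did (adjusted p = 0.0528).

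Of the other 7 endothelial genes 6 fell after scaling, by 0.29 (Tek) to 0.42 (Egfl7), and Tie1 did not pass (-0.16, adjusted p = 0.11). Tek lost its call on the equal sum (-0.20, adjusted p = 0.0512) and without the first KO_REG3B-Fc or the second KO_PBS library (adjusted p = 0.0936 and 0.0813), and Tie1 passed without the first KO_PBS library (adjusted p = 0.0253). On the deposited scale 6 of the 7 rose and Egfl7 did not pass (0.16, adjusted p = 0.061). Tie1 measured 10.4 and 9.17 FPKM in KO_REG3B-Fc libraries, against 6.66 and 7.55 FPKM in KO_PBS libraries. Pecam1 measured 13.9 and 13.5 FPKM in KO_REG3B-Fc libraries, against 13.1 and 11.0 FPKM in KO_PBS libraries. The median gene was 0.53 higher in KO_REG3B-Fc on the deposited scale. After scaling 2361 of all genes were called higher (20%) and 2927 lower (24.8%), against 10157 higher (86.2%) and 822 lower (6.97%) on the deposited scale and 4403 higher and 2066 lower on the equal sum. The balance of Vegfa to the endothelial genes was 2.91 ± 0.00778 in KO_REG3B-Fc and 2.33 ± 0.1 in KO_PBS libraries (n = 2 each), a difference of 0.58. The mean of Kdr and Flt1 over the other 7 genes was 0.68 ± 0.00983 in KO_REG3B-Fc and 0.12 ± 0.0581 in KO_PBS libraries.

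Of all genes, 20% were called higher and 24.8% lower after scaling, and 86.2% and 6.97% on the deposited scale. Of the 31 other endothelial genes 2 rose and 19 fell after scaling, while on the deposited scale it was 19 higher and 2 lower. The 2 that rose after scaling, named after their values were seen, were Esm1, at 36.5 and 38.3 FPKM in KO_REG3B-Fc against 19.5 and 20.0 FPKM in KO_PBS libraries (0.28, adjusted p = 0.00169), and the transcriptional repressor gene Bcl6b (0.31, adjusted p = 0.00883). Of 10 VEGF and angiopoietin genes Pgf (-0.21), Nrp1 (-0.17) and Nrp2 (-0.20), the last under 1 FPKM in KO_PBS, fell after scaling and 0 rose. On the deposited scale 9 of these 10 rose, beside 86.2% of all genes. All 41 acinar genes fell (median -1.78), as did 6 of 6 stellate genes. All 7 macrophage genes fell after scaling, while on the deposited scale 4 fell, C1qa rose (0.42, adjusted p = 1.66e-05) and C1qb and Adgre1 did not pass (adjusted p = 0.134 and 0.696). The B and T cell list summed to 4.09 to 4.16 FPKM in KO_REG3B-Fc libraries, against 53.5 to 54.0 FPKM in KO_PBS libraries, and the part of these cells in the result was not tested.

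KO_REG3B-Fc against CTR_PBS shares libraries with both comparisons above. Of the 10 genes only Plvap passed, at 88.7 and 81.9 FPKM in KO_REG3B-Fc against 91.2 and 90.9 FPKM in CTR_PBS libraries (-0.19 ± 0.0418 SE, adjusted p = 0.024), and on the deposited scale it did not (-0.09, adjusted p = 0.184). Plvap also missed the threshold without the second KO_REG3B-Fc library (adjusted p = 0.149) and without the first or the second CTR_PBS library (0.126 and 0.15). Vegfa differed by -0.07 ± 0.0408 (SE, adjusted p = 0.328), Kdr by -0.13 ± 0.0467 (adjusted p = 0.116) and Flt1 by -0.02 ± 0.0416 (adjusted p = 0.794). Over all genes 659 were called higher (5.59%) and 601 lower (5.1%), against 1977 and 338 on the deposited scale and 505 and 893 on the equal sum. The balance was 2.91 ± 0.00778 in KO_REG3B-Fc and 2.93 ± 0.0368 in CTR_PBS libraries, a difference of -0.02. Outside the 10 genes Esm1 (-0.33, adjusted p = 0.00387) and Dll4, with 4.69 and 4.83 FPKM in KO_REG3B-Fc against 6.05 and 6.09 FPKM in CTR_PBS libraries (-0.37, adjusted p = 0.00572), were lower, also on the deposited scale. Vwf (0.68, adjusted p = 0.000636), under 1 FPKM in CTR_PBS, and the transcription factor gene Hhex (0.64, adjusted p = 0.00284), which delta cells also express, were higher. Without Vwf, 3 of 30 other endothelial genes were higher and 3 lower. Of 17 VEGF and angiopoietin genes 10 were tested, and Nrp1 (-0.27, adjusted p = 0.0173) and Vegfb (-0.26, adjusted p = 0.0441) were lower, though before scaling both missed the threshold (adjusted p = 0.0533 and 0.083).

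**Figure D4:**
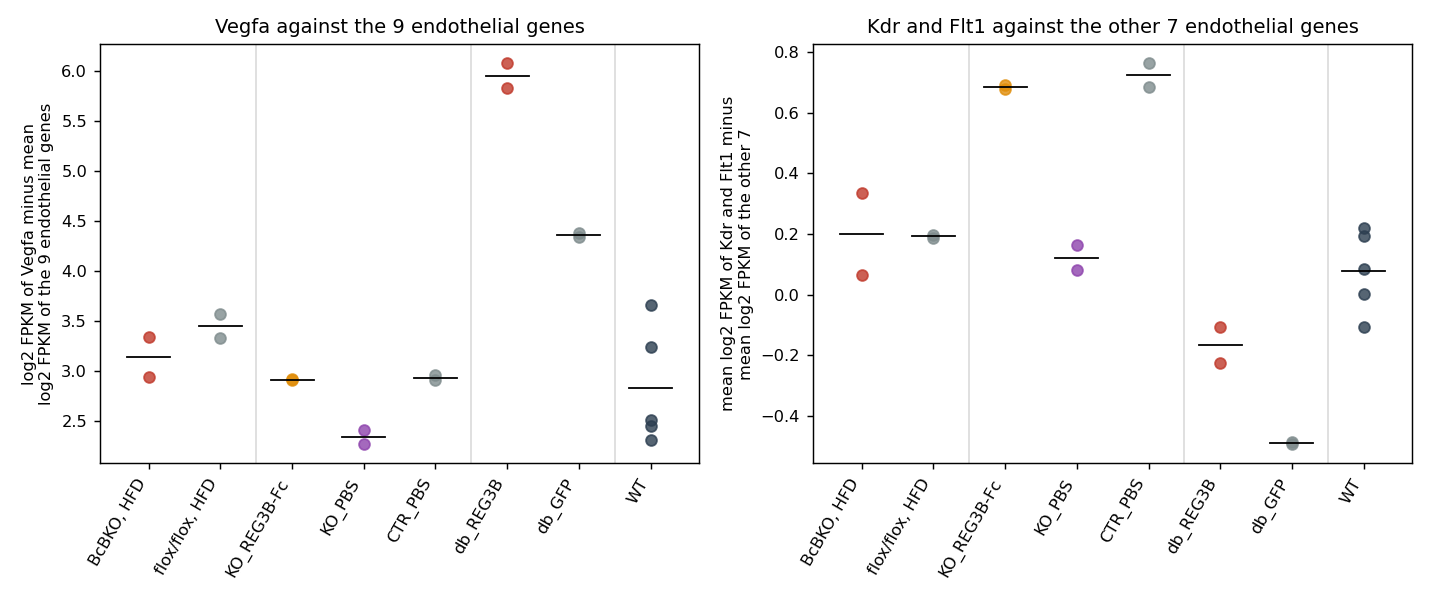
Within-library balances (log2) by group; dots are libraries and bars group means. Left, Vegfa over the 9 endothelial genes, lowest in KO_PBS within its table and highest in db_REG3B; right, Kdr and Flt1 over the other 7 endothelial genes, 0.68 in KO_REG3B-Fc, 0.12 in KO_PBS and 0.72 in CTR_PBS on average.

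The fifth comparison set db_REG3B against db_GFP, asking what REG3B changes in the islets labelled db. Of the endothelial genes 8 fell and Vegfa rose, on each of the 3 scales, and Tek, under 1 FPKM in db_REG3B, is given apart. Vegfa measured 248 and 243 FPKM in db_REG3B libraries, against 174 and 176 FPKM in db_GFP libraries, a log2 change of 0.54 ± 0.0388 (SE, adjusted p = 2.41e-05). Cdh5 measured 5.00 and 5.77 FPKM in db_REG3B libraries, against 15.0 and 14.3 FPKM in db_GFP libraries (-1.24 ± 0.0695, adjusted p = 6.81e-06). Pecam1 measured 6.46 and 7.10 FPKM in db_REG3B libraries, against 13.9 and 13.5 FPKM in db_GFP libraries (-0.86 ± 0.0613, adjusted p = 2.35e-05). Replicates of these 3 genes were close, and the groups stood well apart.

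The receptor genes fell, and Vegfa rose. Kdr measured 2.31 and 2.29 FPKM in db_REG3B libraries, against 4.83 and 4.53 FPKM in db_GFP libraries (-0.74 ± 0.0772, adjusted p = 0.000173). Flt1 measured 5.22 and 6.33 FPKM in db_REG3B libraries, against 9.02 and 9.38 FPKM in db_GFP libraries (-0.55 ± 0.0815, adjusted p = 0.00112). Tie1 measured 2.28 and 2.43 FPKM in db_REG3B libraries, against 5.38 and 5.27 FPKM in db_GFP libraries (-0.87, adjusted p = 5.8e-05). Tek measured 0.23 and 0.43 FPKM in db_REG3B libraries, against 1.40 and 1.36 FPKM in db_GFP libraries (-0.82, adjusted p = 0.000681). Tek passed the filter on low values through db_GFP alone, so it adds nothing to a count, and at this level its change on the log2(FPKM + 1) scale is compressed; the authors' deposited table gives -1.98.

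The remaining fenestra, matrix and junction genes fell as well. Plvap measured 10.3 and 10.5 FPKM in db_REG3B libraries, against 20.2 and 18.4 FPKM in db_GFP libraries (-0.78, adjusted p = 3.69e-05). Egfl7 measured 6.08 and 7.33 FPKM in db_REG3B libraries, against 12.4 and 12.9 FPKM in db_GFP libraries (-0.78, adjusted p = 0.00014). Esam measured 9.65 and 10.5 FPKM in db_REG3B against 14.7 and 16.7 FPKM in db_GFP libraries (-0.54, adjusted p = 0.000625). Of all 12507 genes tested 18.6% were called higher and 26.7% lower, that is 2328 and 3335, with 1530 and 3856 on the deposited scale and 4804 and 2483 on the equal sum. On that equal sum the 8 endothelial genes other than Tek also fell, by 0.42 (Esam) to 1.13 (Cdh5), and Vegfa rose by 0.68. In the authors' deposited table these 8 genes were also lower and Vegfa was higher, by 0.58.

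The balance of Vegfa to the 9 endothelial genes was 5.95 ± 0.180 in db_REG3B and 4.36 ± 0.0240 in db_GFP libraries (n = 2 each), a difference of 1.59, or 3.02-fold. Tek, under 1 FPKM in db_REG3B libraries, enters this mean in full and widens the difference. With the median of the 9 genes the balance was 5.57 and 5.26 in db_REG3B libraries, against 3.80 and 3.77 in db_GFP libraries. Vegfa stood at 5.23 and 4.62 times the summed FPKM of the 9 genes in db_REG3B libraries, against 1.80 and 1.83 times in db_GFP libraries. In db_REG3B libraries Plvap (10.4 ± 0.141 FPKM) and Esam (10.1 ± 0.566 FPKM, n = 2) overlapped in range, and so did Tie1 and Kdr. The ratio of Kdr to Pecam1 was 0.358 and 0.323 in db_REG3B libraries, against 0.348 and 0.337 in db_GFP libraries, and these overlapped. The mean log2 FPKM of Kdr and Flt1 minus that of the other 7 was -0.17 ± 0.0829 in db_REG3B and -0.49 ± 0.00509 in db_GFP libraries (n = 2 each). These 7 include Tek, whose low values in db_REG3B libraries widen this difference, and the measure was not taken without Tek.

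Most other endothelial genes were lower too, where 26.7% of all genes were called lower. Of 36 other endothelial genes listed 33 were tested, and 8 of those passed the filter through db_GFP alone. Of the remaining 25, 24 fell and 0 rose (median -0.77), the exception, named after its value was seen, being Ramp2, a partner of the adrenomedullin receptor (0.11, adjusted p = 0.289). Eng measured 8.84 and 9.54 FPKM in db_REG3B libraries, against 24.5 and 24.2 FPKM in db_GFP libraries (-1.26, adjusted p = 1.64e-06). Gpihbp1, which carries lipoprotein lipase to the capillary lumen, measured 14.4 and 13.1 FPKM in db_REG3B libraries, against 32.8 and 31.0 FPKM in db_GFP libraries (-1.11, adjusted p = 9.53e-06). Esm1 (-0.66, adjusted p = 5.19e-05) and Dll4 (-0.87, adjusted p = 0.000274), followed here because of the KO_PBS comparison, fell as well, while Vegfa rose.

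Of 12 tested genes of the VEGF and angiopoietin pathways, 2 passed the filter through db_GFP alone, and of the other 10, 8 fell and 1 rose. Over all genes 26.7% were called lower and 18.6% higher. Nrp1 measured 2.26 and 2.48 FPKM in db_REG3B libraries, against 7.66 and 7.54 FPKM in db_GFP libraries (-1.31, adjusted p = 6.19e-06). Vegfc, the lymphatic growth factor (-1.08, adjusted p = 3.28e-05), Nrp2 (-0.92, adjusted p = 0.000187), Flt4 (-0.66, adjusted p = 0.00128), Pdgfb, with which endothelium recruits pericytes (-0.63, adjusted p = 0.00015), and Pgf (-0.51, adjusted p = 0.00038) fell. Apln (-0.39, adjusted p = 0.0083) and Pdgfa (-0.26, adjusted p = 0.00927) fell less. Vegfb rose with Vegfa, at 38.3 and 38.6 FPKM in db_REG3B against 31.2 and 35.3 FPKM in db_GFP libraries (0.26, adjusted p = 0.0118). Angpt2, an antagonist of TIE2, had 3.99 and 3.75 FPKM in db_REG3B against 3.81 and 2.94 FPKM in db_GFP libraries and did not pass (0.21, adjusted p = 0.156).

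Genes of mural cells and of the matrix around capillaries were also mostly lower, where 26.7% of all genes were called lower and 18.6% higher. Of 10 mural genes of at least 1 FPKM in both groups 8 fell, while Rgs5, at 14.3 and 14.3 FPKM in db_REG3B against 16.6 and 14.5 FPKM in db_GFP libraries (-0.06, adjusted p = 0.532), and Abcc9 (-0.13, adjusted p = 0.316), named after their values were seen, did not pass. Among those that fell was Pdgfrb, the pericyte receptor for PDGF-B, at 10.5 and 11.3 FPKM in db_REG3B against 31.8 and 31.4 FPKM in db_GFP libraries (-1.40, adjusted p = 7.68e-07). All 11 basement membrane genes fell (median -1.20), among them Col4a1, at 29.5 and 32.5 FPKM in db_REG3B against 65.0 and 64.2 FPKM in db_GFP libraries (-0.98, adjusted p = 3.05e-06). All 7 macrophage genes fell (median -1), as did 7 of 7 stellate genes of at least 1 FPKM in both groups (median -2.32). Of 3 such lymphatic genes Flt4 and Prox1 (-0.21, adjusted p = 0.0284) fell and Lyve1, a hyaluronan receptor that some macrophages also carry, rose (0.50, adjusted p = 0.000329). The stellate list summed to 239 to 251 FPKM in db_REG3B libraries, against 1388 to 1407 FPKM in db_GFP libraries, the macrophage list to 361 to 373 against 756 to 764 FPKM, and the platelet list to 4.53 to 5.04 against 8.69 to 11.4 FPKM. Meanwhile 10 of 12 beta cell genes rose (median 0.76) and insulin took 54.7 and 55.0% of summed FPKM in db_REG3B libraries, against 34.6 and 35.0% in db_GFP libraries. The part of these shifts in the fall of the endothelial genes was not tested.

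Genes of oxygen sensing and the hypoxia response were listed because hypoxia is a known inducer of Vegfa. In db_REG3B 9 of 15 hypoxia response genes rose and 4 fell, with Bnip3 (1.24, adjusted p = 5e-07), Pgk1 (0.88, adjusted p = 9.75e-07) and the glucose transporter gene Slc2a1, at 54.6 and 56.7 FPKM in db_REG3B against 27.2 and 28.7 FPKM in db_GFP libraries (1.02, adjusted p = 2.26e-06), among those that rose and Car9 (-1.96, adjusted p = 2.71e-06) among those that fell. Of 8 oxygen sensing genes 2 rose and 2 fell, near the share of all genes (18.6% and 26.7%), and on the deposited scale 1 rose and 3 fell. Epas1, the hypoxia-inducible factor of endothelium, fell, with 2.28 and 2.84 FPKM in db_REG3B against 6.11 and 5.69 FPKM in db_GFP libraries (-0.92, adjusted p = 0.000132), and Hif1a fell less (-0.25, adjusted p = 0.0024). In KO_PBS, where Vegfa fell, 5 of 13 hypoxia response genes rose and 1 fell after scaling, against 25% and 19.6% of all genes. Among those that rose was the lactate dehydrogenase gene Ldha (1.23, adjusted p = 4.98e-06). On the deposited scale 2 rose and 8 fell, against 8.66% and 81.5% of all genes. The part of hypoxia in the changes of Vegfa was not tested.

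**Figure D5:**
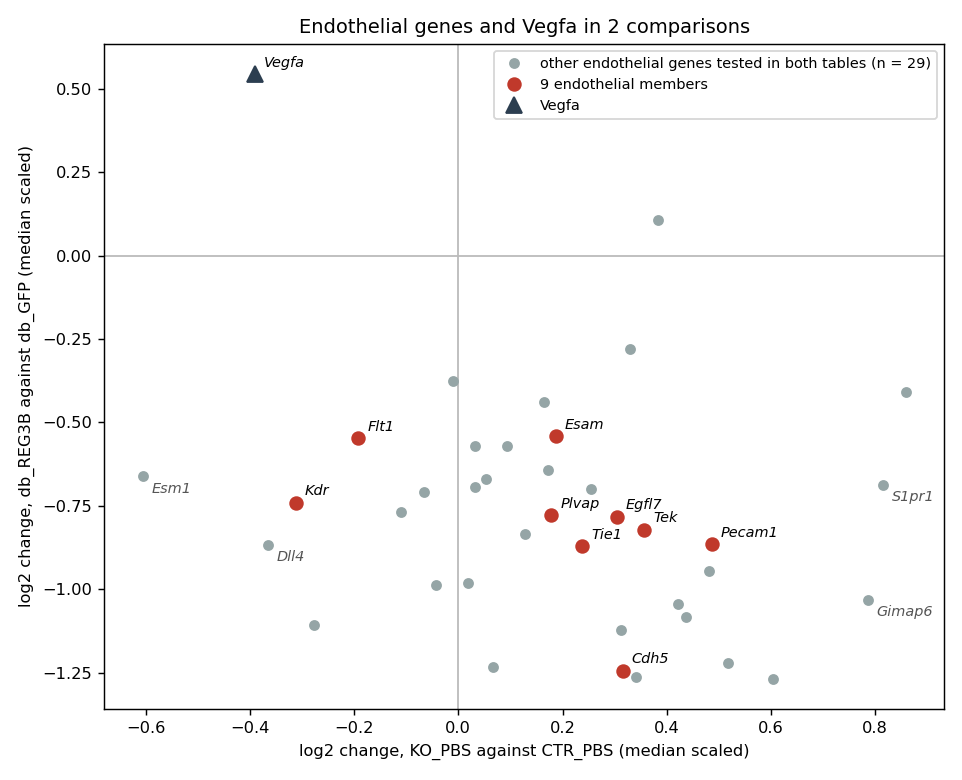
Log2 change after median scaling in KO_PBS against CTR_PBS (x axis) and in db_REG3B against db_GFP (y axis), 2 comparisons that share no library, for the 10 genes and 29 other endothelial genes tested in both tables. The 8 endothelial genes other than Tek lie below 0 on the y axis, and Tek, under 1 FPKM in db_REG3B, is drawn but not counted there. On the x axis Kdr (-0.31) and Flt1 (-0.19), beside Esm1 and Dll4, lie left of 0. The other 7 endothelial genes of the 10 lie right of 0, a side that for those 7 depends on the scaling.

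Genes whose profiles were most like these were sought over all 19 libraries, as the smallest root mean square difference in log2(scaled FPKM + 1) after the mean of each table was taken off, among 9485 genes of at least 1 FPKM in every library. Nearest to the mean of the 9 endothelial genes were Rasip1 (0.0689), Pdgfb (0.076), Arap3 (0.0816), Sema3f (0.0824), Epas1 (0.083), Actn1 (0.0833), Mmrn2 (0.0835) and Phldb1 (0.0908), where the median over all genes was 0.290. Rasip1, Mmrn2 and Epas1 are known from endothelium. Nearest to Vegfa were Nkx6-1 (0.0722), Gnai2 (0.0771), Kctd15 (0.0821), Exph5 (0.0854), Gm572 (0.088), Pip5k1b (0.0921), Fnip2 (0.0936) and Sec16b (0.0949), with a median of 0.272. Nkx6-1, a transcription factor of beta cells, changed by -0.38 in KO_PBS against CTR_PBS (adjusted p = 9.13e-05) and by 0.34 in db_REG3B against db_GFP (adjusted p = 0.000246), next to -0.39 and 0.54 for Vegfa. The ratio of Vegfa to Nkx6-1 was 1.36 and 1.33 in KO_PBS libraries, against 1.35 and 1.36 in CTR_PBS libraries, and it was 1.78 and 1.76 in db_REG3B libraries, against 1.53 and 1.54 in db_GFP libraries. Nkx6-1 was picked for its likeness to Vegfa in these same libraries, so close changes and ratios follow from that choice.

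Among the 9 endothelial genes themselves, Plvap was nearest to the mean of the other 8 by the same measure (0.0858) and Flt1 the farthest (0.173), with the other 7 from 0.108 to 0.154. Vegfa lay at 0.436 from their mean. Libraries share depth and cell mix, so these distances are a description.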

How the data were processed

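RNA of mouse islets was sequenced in paired ends on a BGISEQ-500, per the labels' protocols, against GRCm38.p6, per the submitters' processing notes; the aligner and the counter are not given in the sources used here. FPKM per gene was computed by the authors and deposited in 4 tables, normalised separately. The high-fat diet table also holds TPM computed by the authors. The authors' log2 fold changes and adjusted p-values were deposited in 3 tables, from DESeq2 in the PBS and db tables, per the file headers. Their sign, read from the FPKM, is positive where the KO, REG3B or BcBKO group is higher in the comparisons quoted. For WT, 275 lines lacked a value and 27 repeated an identifier; 15216 genes were kept.

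From the deposited FPKM, each library was divided by its median ratio to the geometric mean library of its table, over genes of at least 1 FPKM in every library. Genes of at least 1 deposited FPKM in 2 or more libraries of a table were tested on log2(x + 1) with limma 3.58.1 in R 4.3.3 (lmFit, eBayes with trend; 1 fit a table with every group in it). Tests were two-sided, and p was adjusted by Benjamini and Hochberg's method across the genes tested, with a threshold of 0.05. The code was tested on simulated data with 200 changed genes. FPKM replaced the counts that a count model needs. Alternatives were the deposited scale, an equal sum without acinar, REG and insulin genes, a pseudocount of 0.1, no filter, a replicate block, TPM, the compared libraries alone, and leaving out each library.

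The 10 genes and all lists were chosen with earlier results of these data known. Named from each list were up to 4 genes of smallest adjusted p among those called, or up to 2 where none was called; exceptions are stated. Of the VEGF and angiopoietin list any gene could be named. Motifs were searched in the 250 bases before each start in the RefSeq promoter table of GRCm38.p6.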

Additional observations from a re-analysis of the deposited data

Results flagged for a closer look

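Of 12 values looked at across the 5 WT libraries, 1 had a library far from the others. Egfl7 measured 13.5 FPKM in the first WT library and 7.66 to 9.17 FPKM in the other 4. The gap from that library to the nearest was 0.742 of the whole range, above Dixon's critical value of 0.71 for 5 libraries. Chance flags about 1 in 20 such groups. The gap was taken on deposited FPKM only. After median scaling Egfl7 stood at 12.47, 9.585, 10.79, 6.104 and 7.953 in the 5 WT libraries, so the first library stood less apart.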

How the results depend on the processing

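Over the 5 comparisons, the calls and directions of the 10 genes in the db table were the same in all 50 alternative values and in 38 of 38 values with a library left out; Tek gave no value without a db_GFP library. Tek passed the filter on low values through db_GFP alone, so its db values add nothing to these counts. In the HFD comparison all 60 alternative values kept their call and sign. With a library left out 38 of 40 kept their sign, and the 2 that turned were of Vegfa. Its change then ran from -0.12 to 0.125 and was -0.0905 without the first BcBKO library. Of 60 alternative values each, 46 kept their call and sign for KO_PBS against CTR_PBS, 52 for KO_REG3B-Fc against KO_PBS and 55 for KO_REG3B-Fc against CTR_PBS.

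On the deposited scale the sign turned for KO_PBS against CTR_PBS in Pecam1 (-0.00886), Cdh5 (-0.146), Tek (-0.0414), Tie1 (-0.238), Plvap (-0.349), Esam (-0.305) and Egfl7 (-0.184). It turned for KO_REG3B-Fc against KO_PBS in Pecam1 (0.178), Cdh5 (0.158), Tek (0.183), Tie1 (0.409), Plvap (0.256), Esam (0.265) and Egfl7 (0.159), and for KO_REG3B-Fc against CTR_PBS in Cdh5 (0.012), Flt1 (0.0734) and Vegfa (0.0288). The genes called there numbered 10624, 10979 and 2315, against 5251, 5288 and 1260 after median scaling. The shift of the median gene on that scale, -0.44, 0.53 and 0.09, is what the scaling takes off. Without the filter KO_REG3B-Fc against CTR_PBS gave 818 calls, and with a library left out 466 to 591; the cause was not tested. The 1 call of the HFD comparison became 0 without the filter and with TPM, and 0 to 1 with a library left out.

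With a replicate block the calls numbered 2 for HFD, 5134 for KO_PBS against CTR_PBS, 5143 and 1072 for KO_REG3B-Fc against KO_PBS and CTR_PBS, and 5729 for db. Libraries of the same number share only that number in the labels. Their differences correlated at 0.67 on HFD, over 2 pairs, and between -0.0508 and 0.047 elsewhere.

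The balance of Vegfa to the endothelial genes, with the median of the 9 genes, was 0.67 for KO_REG3B-Fc against KO_PBS and 0.0125 for KO_REG3B-Fc against CTR_PBS. With log2(FPKM + 1) it was 1.33 for db. With a library left out it ran from -0.509 to -0.117 on HFD, -0.667 to -0.525 for KO_PBS against CTR_PBS, 0.505 to 0.647 and -0.0465 to 0.0055 for KO_REG3B-Fc against KO_PBS and CTR_PBS, and 1.47 to 1.72 for db. The summed WT level of the 9 genes ran from 109.6 to 123.6 FPKM. With 2 libraries a group and no read counts, small differences were not resolvable.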
